A study of Mus musculus with 10 samples.

Results

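Scavenger receptors were described here through 8 genes of a bulk RNA-seq experiment on mouse peritoneal macrophages. They were chosen by symbol as receptors of class A, class B and other classes: Marco, Msr1, Colec12, Cd36, Scarb1, Scarb2, Cd68 and Cxcl16. All 8 were found among the 22165 identifiers of the count table, and all 8 were among the 11614 genes with enough reads to test. The cells came from C57BL/6 mice, were collected by peritoneal lavage and were sorted after staining for CD64, ICAM-2 and CD115, which mark macrophages and monocytes. Knockout (KO) mice carried LysM-Cre together with a floxed target allele. LysM-Cre is a recombinase expressed from the Lyz2 locus and so acts in myeloid cells at large, not in peritoneal macrophages alone. The animals called wild type (WT) carried the floxed allele without Cre according to the treatment protocol in the labels, although the growth protocol calls them WT only, so each genotype comparison is also one of mice with and without Cre. Before lavage with 5 ml of PBS, mice had received either IL-4 bound to an anti-IL-4 antibody, which lengthens the action of this type 2 cytokine, or saline (basal), and 36 hours passed between injection and collection. There were 3 KO IL-4, 3 WT IL-4, 2 KO basal and 2 WT basal libraries of polyadenylated RNA. Whether the replicates were separate animals is not stated, so the p-values measure the spread between these samples, which may be technical.

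Scavenger receptors are cell-surface and endosomal proteins that bind oxidised or acetylated lipoproteins, bacterial surfaces and the membranes of dying cells, and carry them into lysosomes. Macrophages hold many of them at once, and the classes are set apart by their structure, not by descent from one gene family. Class A members have a collagen-like stalk: Marco binds bacteria and inert particles, Msr1 is the original receptor for modified low-density lipoprotein, and Colec12 is a scavenger receptor with a C-type lectin head. Class B members cross the membrane at both ends: Cd36 takes up oxidised lipoprotein and long-chain fatty acids, Scarb1 takes cholesterol ester from high-density lipoprotein, and Scarb2 is a membrane protein of lysosomes that takes part in delivering enzymes to them. Cd68, or macrosialin, is a class D member of the LAMP family found mostly in late endosomes. Cxcl16 is a chemokine on a membrane stalk that also binds oxidised lipoprotein, and its shed form attracts cells that bear Cxcr6.

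By the GENCODE M21 annotation of mm10, Marco (ENSMUSG00000026390) lies at chr1:120474538-120505024, Msr1 (ENSMUSG00000025044) at chr8:39581685-39642673 and Cd36 (ENSMUSG00000002944) at chr5:17781690-17888801. Scarb1 (ENSMUSG00000037936) lies at chr5:125277087-125341094, Scarb2 (ENSMUSG00000029426) at chr5:92441314-92506833, Cd68 (ENSMUSG00000018774) at chr11:69664213-69666153 and Cxcl16 (ENSMUSG00000018920) at chr11:70453983-70459984. These 7 genes are on the minus strand, and Colec12 (ENSMUSG00000036103) is on the plus strand of its chromosome. Cxcl16 shares 552 exon bases, 18.3% of its exon length, with Zmynd15 on the opposite strand. The strand setting of the read counting is not given in the sources used here, so part of the Cxcl16 count could belong to that gene. The other 7 members share exon bases with no other annotated gene.

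The libraries held 8762403 to 15024073 counted reads each, and single members had between 210 reads (Cxcl16) and 22686 reads (Msr1) in a library. Lyz2, the locus that carries Cre, had 2845 to 4096 CPM (read counts scaled to the size of each library) in KO IL-4 and 5912 to 7046 CPM in WT IL-4 libraries. It had 2664 and 9675 CPM in KO basal and 21903 and 23599.7 CPM in WT basal libraries, so KO lay below WT under both treatments. All 18 markers of large peritoneal macrophages had reads in every library, with a summed level of 15593 to 25617 CPM. Prg4 and F5 held much of this sum. In KO IL-4 libraries they averaged 7526 and 4645 CPM, beside a mean sum of 20563 CPM. This sum thus follows few genes of its list and is a weak measure of large peritoneal macrophages. Markers of other cells were present too. The 16 B cell markers summed to 825 to 915 CPM in KO IL-4, 735 to 850.1 CPM in WT IL-4, 2105 to 2446 CPM in KO basal and 330.4 to 510.1 CPM in WT basal libraries, so KO basal stood apart. The 18 markers of small macrophages, monocytes and dendritic cells, some of which IL-4 itself induces, summed to 14490.2 to 16810 CPM, 10324 to 11745 CPM, 5935 to 7406 CPM and 4633 to 6733 CPM in the same order of groups. Fn1 and Retnla held much of these sums. In KO IL-4 libraries Fn1 averaged 6354 and Retnla 6594 CPM, beside a mean sum of 15304 CPM. In WT basal libraries Fn1 averaged 4736 CPM, beside a mean sum of 5683 CPM. The sums thus follow few genes of the list and are a weak measure of these cells. Of 14 mesothelial and fibroblast markers, 6 (Krt19, Msln, Pdgfra, Upk1b, Upk3b and Wt1) were at 0 in all libraries. In bulk RNA, fewer cells of a type and less RNA per cell cannot be told apart, and this holds for every value below.

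Per kilobase of annotated exon, Msr1 had the highest mean in each of the 4 groups and Cd68 the next. Msr1 averaged 132 CPM per kilobase in KO IL-4, 202 in WT IL-4, 163 in KO basal and 299 in WT basal libraries. Cd68 averaged 119, 151, 103 and 104 CPM per kilobase in the same groups. Msr1 and Cd68 did not overlap in the basal libraries but did in both IL-4 groups, and Cd68 and Marco overlapped in WT IL-4 libraries. Cd36 and Marco followed: in KO IL-4 libraries Cd36 averaged 71.6 and Marco 48.9 CPM per kilobase, with overlap, while in WT IL-4 libraries the order of means was turned, with Marco at 140.0 and Cd36 at 111, also with overlap. In KO basal libraries Cd36 averaged 74.8 and Marco 56.5 CPM per kilobase, and in WT basal libraries 67 and 33.1. Scarb2 was the fifth throughout, with 17.3, 26.2, 19.4 and 17.2 CPM per kilobase, and overlapped no neighbour in the order in any group. Colec12, Cxcl16 and Scarb1 were the least abundant, at 3.39 to 11.7 CPM per kilobase. Colec12 was last in WT IL-4 libraries and the sixth in WT basal libraries, where it overlapped Cxcl16.

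**Figure D1:**
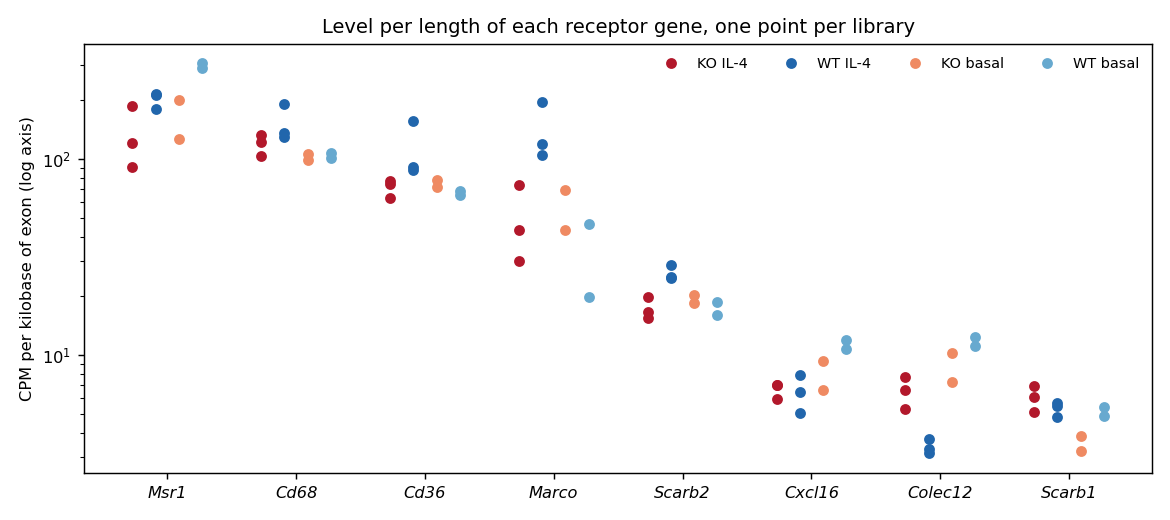
CPM per kilobase of annotated exon (log axis) for each of the 8 genes, with 1 point per library and colours for the 4 groups. Msr1 has the highest mean in every group and Cd68 the next, although in WT IL-4 libraries the Marco points overlap those of Cd68. Colec12, Cxcl16 and Scarb1 lie at the bottom and partly overlap.

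The response to IL-4 was described first in WT mice. There, 2 of the 8 members passed the threshold (edgeR's quasi-likelihood test, p below 0.05 after Benjamini-Hochberg adjustment across the whole set of tested genes), Marco with a rise and Colec12 with a fall. Of all genes tested, 6.06% passed this threshold, 3.26% with a rise and 2.80% with a fall. An unadjusted p under 0.05 in edgeR's test was found for 7 of the 8. Such values were common, since Msr1, with an unadjusted p of 0.0495, ranked 2463 by p among the 11614 genes tested. DESeq2 called 3 of the 8 (Marco, Colec12 and Scarb2), beside 1185 of the 11614 genes. The libraries of IL-4 and basal WT mice did not overlap for 7 of 8 members, 4 of them higher (Marco, Cd36, Scarb2 and Cd68) and 3 lower (Msr1, Colec12 and Cxcl16), against 40.2% of all genes tested. The median log2 change of the members was 0.30, and that of all genes was 4.05e-05. The summed markers of small macrophages, monocytes and dendritic cells moved with this comparison. They had 10324 to 11745 CPM in WT IL-4 and 4633 to 6733 CPM in WT basal libraries. Of 16 B cell markers, 6 were higher and 0 lower after IL-4. Of 18 large peritoneal macrophage markers, 0 were higher and 3 lower. Of 10 tested neutrophil and eosinophil markers, 3 were higher and 1 lower. Of 10 tested mast cell and basophil markers, 0 were higher and 3 lower. The part of all these cells in the member values was not tested. In KO mice 0 of the 8 members passed edgeR's test, while 7.60% of all genes passed. Scarb1 alone had an unadjusted p under 0.05 (0.00588, rank 1054 by p). DESeq2 called 1 member (Scarb1), beside 1371 of the 11614 genes. There only Scarb1 had no overlap between IL-4 and basal libraries, against 39.6% of all genes, and the members' median was -0.19 beside -0.0017 for all genes. In KO mice 15 of 16 B cell markers and 8 of 10 tested mast cell and basophil markers were lower after IL-4. Among 18 large peritoneal macrophage markers, 0 were higher and 3 lower. The small macrophage, monocyte and dendritic cell markers summed to 14490.2 to 16810 CPM in KO IL-4 and 5935 to 7406 CPM in KO basal libraries, and the part of these cells in the member values was not tested.

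Marco was the member with the largest rise. It had 202, 377 and 230.0 CPM in WT IL-4 libraries, against 38.1 and 89.4 CPM in WT basal libraries. In KO mice it had 57.7, 83.1 and 142 CPM after IL-4, against 134 and 83.9 CPM under basal conditions. Every WT IL-4 library thus lay above all other libraries of the series, and the remaining groups overlapped each other. IL-4 raised Marco 4.23-fold in WT mice, a log2 change of 2.08 ± 0.46 (SE, adjusted p = 0.0179). The call was lost without WT basal replicate 1 (1.60, adjusted p = 0.127) and without WT IL-4 replicate 2 (1.76, adjusted p = 0.0570), the libraries with the lowest and the highest WT level. In KO mice the log2 change was -0.21 ± 0.42 (adjusted p = 0.824). The difference between the IL-4 effects, KO minus WT, was -2.29 ± 0.61 and did not pass (adjusted p = 0.0653). This result depended on the processing, since 4 of 5 other settings of scaling, filter, test or block called it. Its values there ranged from -2.51 to -2.26, and with 1 library left out from -3.04 to -1.82.

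Msr1, the receptor for modified lipoprotein, had 578, 1175 and 766 CPM in KO IL-4 libraries and 1336, 1136 and 1366 CPM in WT IL-4 libraries. Under basal conditions it had 1266 and 804 CPM in KO and 1850.2 and 1943 CPM in WT libraries. Both WT basal libraries were higher than all others. The basal genotypes did not overlap, and after IL-4 KO replicate 2 lay within the WT range. Averaged over both treatments, Msr1 fell 1.67-fold in KO mice, a log2 change of -0.74 ± 0.19 (adjusted p = 0.0432), and it was the only member to pass of 8, beside 4.0% of all genes. Within treatments the log2 changes were -0.61 ± 0.24 after IL-4 (adjusted p = 0.265) and -0.87 ± 0.30 under basal conditions (adjusted p = 0.120). The averaged call held in 2 of 10 fits that left out 1 library, those without KO basal replicate 1 and without KO IL-4 replicate 2. It was lost without any one of the other 8 libraries, with an adjusted p of up to 0.187, and the log2 change ranged from -0.92 to -0.60. It was also lost with library totals (adjusted p = 0.0614) and with a replicate block (adjusted p = 0.0782). In the same averaged comparison 15 of 16 B cell markers were higher in KO. Of 18 large peritoneal macrophage markers, 2 were higher and 2 lower. Of 17 tested small macrophage, monocyte and dendritic cell markers, 3 were higher and 0 lower. The part of these cells in the Msr1 value was not tested. IL-4 changed Msr1 by -0.30 ± 0.27 in KO (adjusted p = 0.545) and -0.57 ± 0.27 in WT mice (adjusted p = 0.233).

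Colec12, the collectin-type receptor, showed the clearest response to IL-4. It had 32.4, 27.5 and 28.8 CPM in WT IL-4 libraries, against 108 and 96.5 CPM in WT basal libraries. In KO mice it had 57.5, 67.5 and 46.5 CPM after IL-4, against 89.3 and 63.3 CPM under basal conditions. The WT groups were far apart, the KO groups overlapped, and the KO IL-4 libraries lay between the WT groups. IL-4 lowered Colec12 3.46-fold in WT mice (log2 -1.79 ± 0.24, adjusted p = 6.33e-04), a change that ranked 34 by p among all genes tested. This call was kept in 10 of 10 fits without 1 library, with values between -1.87 and -1.70. Averaged over genotypes, the log2 change was -1.10 ± 0.17 (adjusted p = 7.31e-04), and Colec12 was the only member of 8 to pass, beside 12.9% of all genes. In KO mice the change was -0.42 ± 0.24 and did not pass (adjusted p = 0.325).

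The IL-4 effect on Colec12 differed between genotypes. The interaction, the IL-4 effect in KO minus that in WT, was 1.37 ± 0.35 on the log2 scale (adjusted p = 0.0457), so the ratio of IL-4 to basal levels was 2.59-fold higher in KO than in WT mice. It was the only member of 8 to pass, beside 2.81% of all genes. This rested on few libraries: the call was kept in 1 of 10 fits without 1 library, the one without KO IL-4 replicate 3, and was lost without any one of the others. Those values ranged from 1.15 to 1.64 and their adjusted p from 0.0320 to 0.226. With a replicate block the interaction was 1.38 (adjusted p = 0.0682). With library totals in place of TMM scaling the interaction was 1.20 (adjusted p = 0.0918), and that of Marco then passed at -2.49 (adjusted p = 0.0344). The B cell marker sum also moved with this contrast, since it was 2105 to 2446 CPM in KO basal libraries and at most 915 CPM elsewhere. Markers of several cell types had a negative interaction that passed. They were 15 of 16 B cell, 4 of 10 tested neutrophil and eosinophil and 2 of 10 tested mast cell and basophil markers. So were 5 of 17 tested small macrophage, monocyte and dendritic cell markers and 2 of 18 large peritoneal macrophage markers. In these lists 0 were called higher. The part of these cells in the Colec12 value was not tested.

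**Figure D2:**
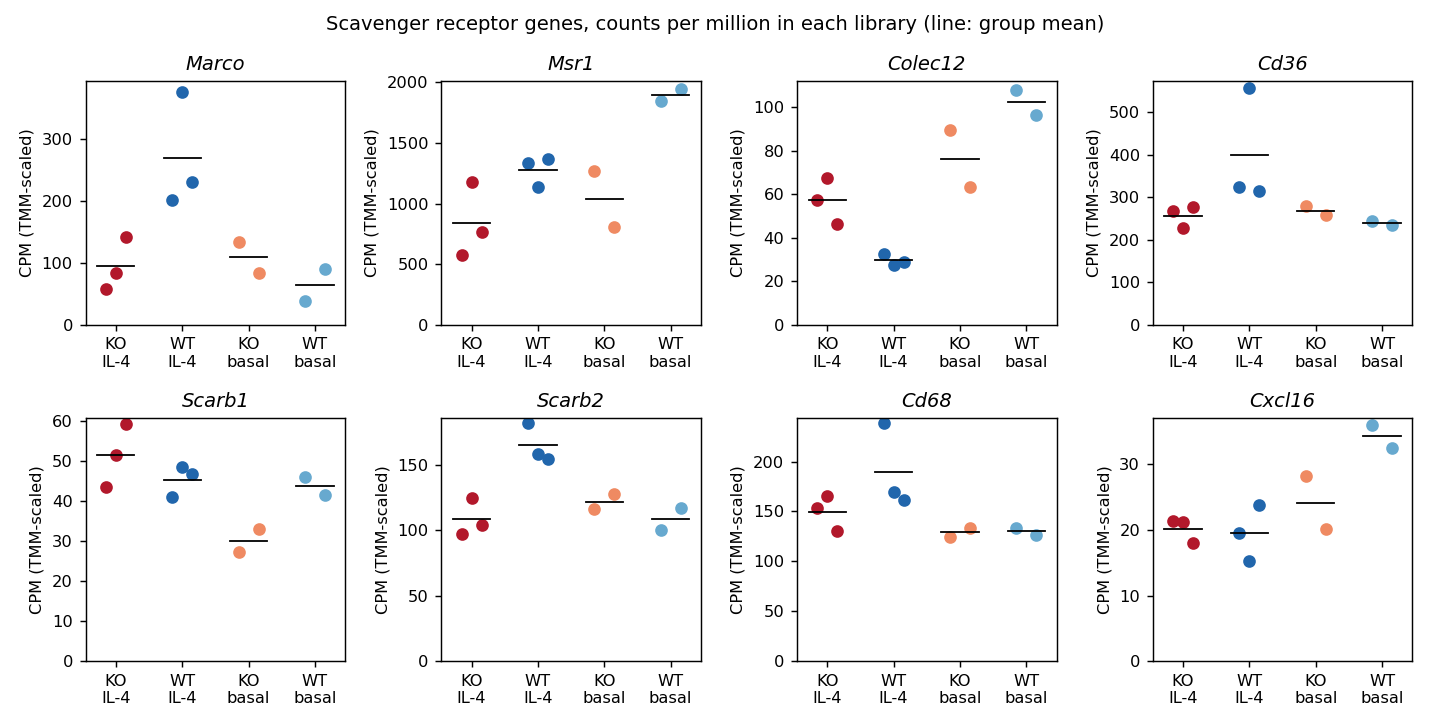
CPM of each of the 8 genes in each library, with a line at the group mean and groups ordered KO IL-4, WT IL-4, KO basal and WT basal. The WT IL-4 libraries are the highest for Marco (202 to 377 CPM) and the lowest for Colec12 (27.5 to 32.4 CPM).

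Among class B members, Cd36 had 268, 227 and 276 CPM in KO IL-4 libraries, against 325, 558 and 314 CPM in WT IL-4 libraries. Under basal conditions it had 279 and 259 CPM in KO, against 245 and 236 CPM in WT libraries. KO lay below WT in every library after IL-4 and above WT in every basal library, with WT IL-4 replicate 2 far above the rest. The fitted genotype changes did not pass, at -0.63 ± 0.22 after IL-4 (adjusted p = 0.203) and 0.16 ± 0.27 under basal conditions (adjusted p = 0.824). The interaction was -0.79 ± 0.35 (adjusted p = 0.288). IL-4 changed Cd36 by -0.06 ± 0.25 in KO (adjusted p = 0.915) and 0.73 ± 0.25 in WT mice (adjusted p = 0.0981). Without WT IL-4 replicate 2, the genotype change after IL-4 was -0.31 and the IL-4 change in WT was 0.41.

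Scarb2, the lysosomal member of class B, had 97.3, 125 and 104 CPM in KO IL-4 libraries, against 182, 158 and 155 CPM in WT IL-4 libraries. It had 116 and 127 CPM in KO basal libraries, against 100.1 and 117 CPM in WT basal libraries. As for Marco, the 3 WT IL-4 libraries were above all 7 others, which overlapped. The IL-4 change was 0.60 ± 0.22 in WT (adjusted p = 0.118, or 0.0426 with DESeq2) and -0.16 ± 0.21 in KO mice (adjusted p = 0.706), and the genotype change after IL-4 was -0.60 ± 0.19 (adjusted p = 0.165).

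Scarb1, the high-density lipoprotein receptor, had 43.5, 51.6 and 59.2 CPM in KO IL-4 libraries, against 27.4 and 32.9 CPM in KO basal libraries. In WT mice it had 40.9, 48.4 and 46.7 CPM after IL-4, against 46.1 and 41.5 CPM under basal conditions. The KO basal libraries were lower than all 8 others, and it was the only member whose KO libraries were separated by IL-4. The IL-4 change in KO was 0.77 ± 0.24 (adjusted p = 0.0648), that in WT was 0.05 ± 0.24 (adjusted p = 0.933), and their difference was 0.72 ± 0.33 (adjusted p = 0.318). DESeq2 called the change in KO (0.79, adjusted p = 0.0150). The same KO basal libraries had the highest sums of B cell markers, of mast cell and basophil markers (190 to 321 CPM, against 36.0 to 132 CPM in the other libraries) and of T and NK cell markers (107 to 116 CPM, against 26.8 to 45.3 CPM). Their part in the Scarb1 level was not tested.

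Cd68, the endosomal sialomucin, had 153, 166 and 130.4 CPM in KO IL-4 libraries, against 238, 169 and 162 CPM in WT IL-4 libraries. It had 124 and 134 CPM in KO basal libraries, against 134 and 126 CPM in WT basal libraries. WT IL-4 replicate 1 was the highest, and the basal genotypes overlapped. The IL-4 change was 0.54 ± 0.23 in WT (adjusted p = 0.183) and 0.21 ± 0.23 in KO mice (adjusted p = 0.625), and the basal genotype change was -0.01 ± 0.25 (adjusted p = 0.989), or 0.13 when scaled by library totals.

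Cxcl16 had 21.3, 21.3 and 18.1 CPM in KO IL-4 libraries, against 28.2 and 20.1 CPM in KO basal libraries. In WT mice it had 19.5, 15.4 and 23.9 CPM after IL-4, against 36.1 and 32.5 CPM under basal conditions. The WT basal libraries were the highest of the series, and IL-4 and basal KO libraries overlapped. The IL-4 change was -0.81 ± 0.27 in WT (adjusted p = 0.0829) and -0.26 ± 0.27 in KO mice (adjusted p = 0.621), with neither past the threshold. Adam10 and Adam17, the proteases that shed Cxcl16, rose with IL-4 averaged over genotypes, by 0.80 ± 0.20 (adjusted p = 0.0146) and 0.51 ± 0.15 (adjusted p = 0.0351) on the log2 scale. Cxcr6, the receptor for the shed form, averaged 1.15 ± 0.507 CPM in KO IL-4 and 1.6 ± 0.577 CPM in WT IL-4 libraries (SD, n = 3 each).

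**Figure D3:**
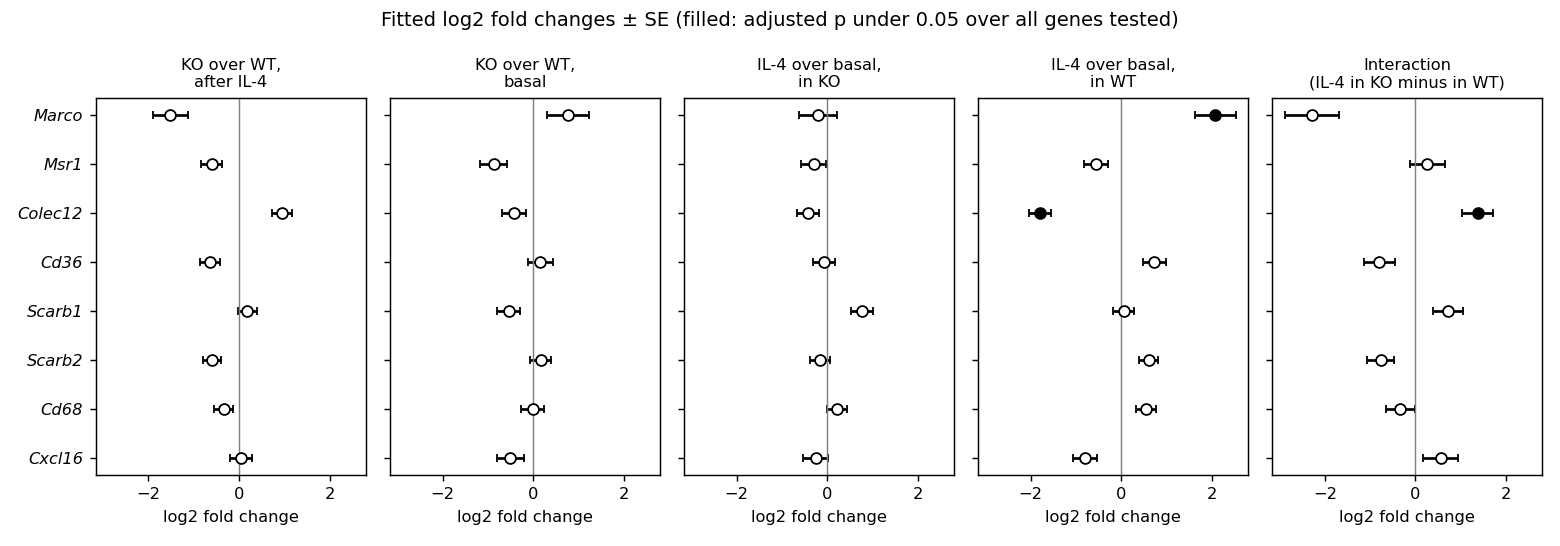
Fitted log2 fold changes with their SE for the 8 genes in the comparisons named above each panel, with filled points where the adjusted p was under 0.05. IL-4 in WT mice has filled points for Marco (2.08) and Colec12 (-1.79), and IL-4 in KO mice has none.

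RefSeq promoter windows on GRCm38.p6, from 250 bases before to 50 after the annotated transcript start, were at hand for 4 of the 8 members. These happened to be Marco, Cd36, Scarb2 and Cd68, the 4 whose WT IL-4 libraries all lay above the WT basal ones, although Marco alone passed the test. They are shown because they were the windows at hand, and they were not chosen by direction of change or by motif. The windows are chr1:120504975-120505274, chr5:17835847-17836146, chr5:92505608-92505907 and chr11:69666121-69666420, all read 5′ to 3′ on the minus strand, and motif matches are in capitals:
Marco: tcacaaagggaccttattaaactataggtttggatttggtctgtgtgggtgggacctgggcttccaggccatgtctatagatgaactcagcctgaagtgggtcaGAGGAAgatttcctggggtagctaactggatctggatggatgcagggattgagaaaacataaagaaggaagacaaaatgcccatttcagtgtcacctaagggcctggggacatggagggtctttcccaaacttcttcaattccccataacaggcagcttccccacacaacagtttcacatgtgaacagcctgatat
Cd36: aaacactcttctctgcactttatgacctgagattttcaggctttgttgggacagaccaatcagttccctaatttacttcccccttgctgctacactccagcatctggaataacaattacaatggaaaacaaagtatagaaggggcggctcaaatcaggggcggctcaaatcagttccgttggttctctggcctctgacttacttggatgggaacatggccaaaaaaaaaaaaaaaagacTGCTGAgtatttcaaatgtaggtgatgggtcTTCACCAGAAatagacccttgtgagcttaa
Scarb2: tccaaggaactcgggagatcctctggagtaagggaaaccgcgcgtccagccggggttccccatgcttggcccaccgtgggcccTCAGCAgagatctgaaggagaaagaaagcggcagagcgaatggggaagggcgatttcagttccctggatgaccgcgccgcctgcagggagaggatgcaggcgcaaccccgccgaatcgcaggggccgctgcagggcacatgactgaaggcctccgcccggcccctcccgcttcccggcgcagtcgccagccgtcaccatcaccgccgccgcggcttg
Cd68: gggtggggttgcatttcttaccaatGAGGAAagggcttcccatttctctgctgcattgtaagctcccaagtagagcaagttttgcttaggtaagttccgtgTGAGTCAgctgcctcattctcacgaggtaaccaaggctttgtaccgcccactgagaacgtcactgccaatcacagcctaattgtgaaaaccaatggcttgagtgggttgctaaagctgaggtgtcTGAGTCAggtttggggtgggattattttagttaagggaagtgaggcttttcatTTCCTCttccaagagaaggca

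The motifs searched on both strands were TTCNNNNGAA (the spacing typical of STAT6, which IL-4 activates), TTCNNNGAA (other STAT factors), TGANTCA (AP-1), CACGTG (E-box), GAGGAA (core of PU.1 sites), TGCTGA (core of MAF sites) and TATAAA. The match TTCACCAGAA at bases 271 to 280 of the Cd36 window was the only one with STAT6 spacing, and 6.95% of all 32851 promoter windows hold such a match. TGANTCA matched in the Cd68 window alone, as TGAGTCA at bases 102 to 108 and 227 to 233, and is held by 7.81% of windows. GAGGAA stood in the Marco window at bases 105 to 110 and in the Cd68 window at bases 26 to 31 and, on the other strand, 280 to 285. TGCTGA stood in the Cd36 window at bases 240 to 245 and on the other strand of the Scarb2 window at bases 84 to 89. GAGGAA and TGCTGA are common, with 28.3% and 19.5% of windows. TTCNNNGAA, CACGTG and TATAAA, held by 8.30%, 7.15% and 13.6% of windows, had no match in these 4. The Scarb2 window was richest in G and C at 67.3%, while those of Marco, Cd36 and Cd68 had 47.3%, 43.0% and 47.7%. No printed match overlapped another, and a match describes letters, not binding. The Cd36 window lies 52905 bases inside the gene from its outermost annotated start.

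Between genotypes, the 2 treatments were compared separately. After IL-4 0 of the 8 members passed edgeR's test, beside 0.827% of all genes that passed. An unadjusted p under 0.05 was found for 5 members, the largest of them that of Msr1. Among the 11614 genes tested, Msr1 (unadjusted p = 0.0236) ranked 1033 by p and Cd68 (0.112) ranked 2778. Marco (-1.52 ± 0.38, adjusted p = 0.0895) and Colec12 (0.95 ± 0.22, adjusted p = 0.0583) came nearest. DESeq2 called these 2 (adjusted p = 0.00474 and 0.00291), beside 396 of the 11614 genes. In all, 4 members did not overlap between KO and WT after IL-4, with Marco, Cd36 and Scarb2 lower and Colec12 higher in KO, beside 20.3% of all genes. The members' median was -0.47, beside 0.02 for all genes. The small macrophage, monocyte and dendritic cell markers summed to 14490.2 to 16810 CPM in KO IL-4 and 10324 to 11745 CPM in WT IL-4 libraries. Of 17 tested markers in that list, 1 was higher and 0 lower in KO. Of 18 large peritoneal macrophage markers, 2 were higher and 1 lower in KO. Of 10 tested neutrophil and eosinophil markers, 0 were higher and 3 lower in KO. What these cells add to the member values after IL-4 was not tested. Under basal conditions 0 of the 8 passed edgeR's test, beside 4.14% of all genes that passed. Msr1 alone had an unadjusted p under 0.05, and Scarb1, just above it at 0.0553, ranked 2160 by p among all genes. DESeq2 called 0 of the 8, beside 895 of the 11614 genes. Msr1, Colec12, Cxcl16 and Scarb1 were lower and Cd36 higher in both KO libraries, and 48.2% of all genes were likewise separated. The members' basal median was -0.22, beside -0.02 for all genes. B cell markers differed in this basal comparison, with 16 of 16 higher in KO. So did 6 of 17 tested markers of small macrophages, monocytes and dendritic cells and 4 of 10 tested mast cell and basophil markers, all of them higher in KO. Among 18 large peritoneal macrophage markers, 1 was higher and 1 lower in KO. The part of these cells in the member values was not tested.

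The balance of the members within a library was also described, as reads per 100 reads of Msr1. Marco had 15.1, 33.2 and 16.8 reads per 100 Msr1 reads in WT IL-4 libraries, against 2.06 and 4.60 in WT basal libraries. In KO libraries it had 9.98, 7.07 and 18.5 after IL-4, against 10.6 and 10.4 under basal conditions. The log2 difference was 2.73 in WT (two-sided exact permutation p = 0.1, the smallest that 3 against 2 libraries allow) and 0.06 in KO mice (exact permutation p = 1).

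Colec12 had 9.95, 5.75 and 6.06 reads per 100 Msr1 reads in KO IL-4 libraries, against 2.42, 2.42 and 2.11 in WT IL-4 libraries. Every KO value was above every WT value, with a log2 difference of 1.60 (exact permutation p = 0.1, the smallest for 3 against 3). Cd36 had 46.4, 19.3 and 36.1 in KO IL-4, against 24.3, 49.1 and 23.0 in WT IL-4 libraries, and these overlapped with a log2 difference of 0.08 (exact permutation p = 1). In basal libraries Cd36 had 22 and 32.2 reads per 100 Msr1 reads in KO, against 13.3 and 12.1 in WT. Cd68 had 9.83 and 16.6 in KO basal, against 7.24 and 6.51 in WT basal libraries. A ratio shows unequal change of a pair of genes, and it also moves when Msr1 does. The fitted log2 change of Msr1 in KO was -0.61 after IL-4 and -0.87 under basal conditions. With IL-4 in WT mice Msr1 changed by -0.57. The fitted change of Cd68 in KO under basal conditions was -0.01. With 2 libraries against 2 the smallest exact permutation p is 0.333.

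**Figure D4:**
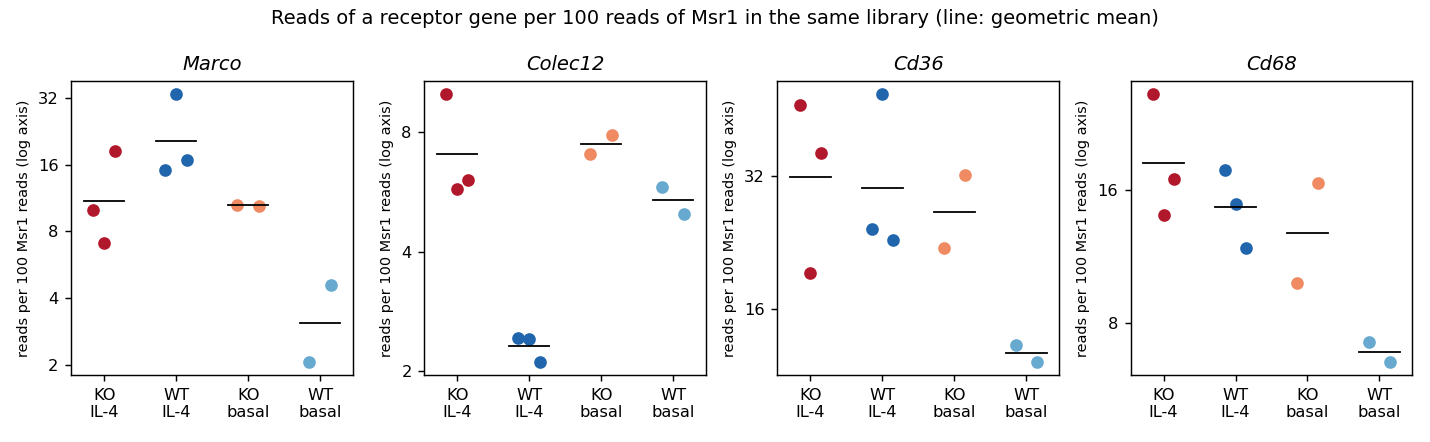
Reads of a receptor gene per 100 reads of Msr1 in each library (log axis), with a line at the geometric mean of each group. WT IL-4 libraries have 15.1 to 33.2 Marco reads and 2.11 to 2.42 Colec12 reads per 100 Msr1 reads.

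Of 17 other scavenger receptors and related proteins, 9 had enough reads to test. The list also held the lysosomal membrane proteins Lamp1 and Lamp2 and the secreted Cd5l, and the counts below include them. IL-4 raised Cd163, the haptoglobin-haemoglobin receptor, by 1.62 ± 0.30 in KO (adjusted p = 0.00394) and by 2.56 ± 0.32 in WT mice (adjusted p = 3.98e-04). Mrc1, the mannose receptor, rose by 2.25 ± 0.41 in KO (adjusted p = 0.00463) and 2.70 ± 0.42 in WT mice (adjusted p = 0.00251). In KO mice Cd5l, a secreted scavenger protein, also rose (1.15 ± 0.24, adjusted p = 0.00902) and Stab1, an endocytic receptor of class H, fell (-1.33 ± 0.25, adjusted p = 0.00390). So 4 of 9 passed in KO, 3 with a rise and 1 with a fall, and 2 of 9 in WT mice, beside 7.60% and 6.06% of all genes. Averaged over genotypes 4 of 9 rose, beside 12.9% of all genes that passed in either direction, Lamp2, a lysosomal membrane protein, among them (0.62 ± 0.19, adjusted p = 0.0467). Stab1 differed in its IL-4 response between genotypes (interaction -2.08 ± 0.36, adjusted p = 0.00488), with 16.3 ± 1.96 CPM in KO IL-4, 28.4 ± 2.01 in WT IL-4, 40.9 ± 1.46 in KO basal and 16.9 ± 4.11 in WT basal libraries. Under basal conditions it was higher in KO (1.28 ± 0.28, adjusted p = 0.0167). Between genotypes after IL-4, 0 of the 9 passed edgeR's test, 1 had an unadjusted p under 0.05 and DESeq2 called 1 (Stab1). Of all 11614 genes, 0.827% passed edgeR's test there and DESeq2 called 396.

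Genes that handle the lipid such receptors take in moved both ways. In WT mice 5 of 18 passed, beside 6.06% of all genes. With IL-4, 2 rose, namely Plin2, a lipid droplet coat protein (1.06 ± 0.23, adjusted p = 0.0136), and Lipa, the lysosomal acid lipase (1.07 ± 0.24, adjusted p = 0.0148). Another 3 fell, among them Apoe, an apolipoprotein (-2.91 ± 0.31, adjusted p = 1.52e-04) and Fabp5, a fatty acid binding protein (-1.96 ± 0.46, adjusted p = 0.0260). In KO mice 3 of 18 passed, beside 7.60% of all genes: 1 rose, Lipa (0.88 ± 0.24, adjusted p = 0.0321), and 2 fell, Apoe (-2.37 ± 0.30, adjusted p = 3.02e-04) and Pltp, a phospholipid transfer protein (-1.52 ± 0.22, adjusted p = 5.36e-04). The response of Fabp5 differed between genotypes (interaction 3.35 ± 0.67, adjusted p = 0.0187), and so did that of Pltp (-1.53 ± 0.32, adjusted p = 0.0140). Under basal conditions Pltp was higher (1.28 ± 0.25, adjusted p = 0.00715) and Fabp5 lower (-2.73 ± 0.54, adjusted p = 0.0148) in KO mice. Between genotypes after IL-4, 0 of the 18 passed edgeR's test, 3 had an unadjusted p under 0.05 and DESeq2 called 2 (Abca1 and Plin2). The values for all 11614 genes were 0.827% passing edgeR's test and 396 called by DESeq2.

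Of 18 tested partners and signalling proteins of the receptors, 2 fell with IL-4 in WT mice, Cav1 (-2.78 ± 0.45, adjusted p = 0.00267), which encodes the coat protein of the caveolae where Cd36 and Scarb1 can reside, and Vav1 (-0.84 ± 0.24, adjusted p = 0.0495), a signalling protein of phagocytosis. In KO mice Lyn, a Src family kinase that Cd36 engages, rose (0.80 ± 0.22, adjusted p = 0.0392) and Vav1 fell (-1.12 ± 0.24, adjusted p = 0.00930), while Cav1 did not pass there and its response differed between genotypes (interaction 3.21 ± 0.65, adjusted p = 0.0148). Of 20 tested transcription factors tied to these genes, 2 rose with IL-4 in WT mice, Maf (1.64 ± 0.24, adjusted p = 0.00101) and Klf4 (1.10 ± 0.23, adjusted p = 0.00949). In KO mice 4 of 20 rose: Klf4 (2.02 ± 0.24, adjusted p = 9.58e-05), Batf3 (1.87 ± 0.36, adjusted p = 0.00462), Spi1, which encodes PU.1 (0.79 ± 0.21, adjusted p = 0.0331), and Stat6 (0.84 ± 0.24, adjusted p = 0.0419). Averaged over genotypes 8 of 20 rose. Of all genes, 6.06% passed in WT, 7.60% in KO and 12.9% in the average, in either direction. Pparg, a nuclear receptor known to induce Cd36, was scarce at 1.0 ± 0.515 CPM in KO IL-4 and 2.25 ± 1.61 CPM in WT IL-4 libraries (SD, n = 3 each). In basal libraries it averaged 0.089 CPM in KO and 0.142 CPM in WT (n = 2 each), near the floor. DESeq2 called Pparg for IL-4 in WT mice and for the average over genotypes. Under basal conditions Cav1 (-2.43 ± 0.51, adjusted p = 0.0154) and Batf3 (-1.39 ± 0.38, adjusted p = 0.0489) were lower and Runx1 was higher (1.01 ± 0.23, adjusted p = 0.0239) in KO mice. For genotype after IL-4, 0 of the 18 partners passed edgeR's test, with 2 at an unadjusted p under 0.05 and 1 called by DESeq2 (Lyn). Of the 20 factors 0 passed, with 5 at an unadjusted p under 0.05 and 0 called by DESeq2. Among all 11614 genes 0.827% passed edgeR's test there and DESeq2 called 396. Low unadjusted p were common, since Msr1, at 0.0236 in edgeR's test, ranked 1033 by p.

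The genes whose levels ran most alike across the 10 libraries were listed for the 3 members that passed in any comparison. For Marco they were Lrpprc (Pearson r = 0.934 of log2 CPM), Slc27a1 (0.925) and S100a9 (0.914), which is among the neutrophil and eosinophil markers. For Msr1 they were Hspa5 (0.968), Psmb6 (0.954) and Smim7 (0.951), and for Colec12 Ripply3 (0.969), Slc2a9 (0.930) and Tgfb2 (0.928). These were picked as the highest coefficients of all genes compared, and the libraries fall into groups and share their scaling, so they describe this table only.

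**Figure D5:**
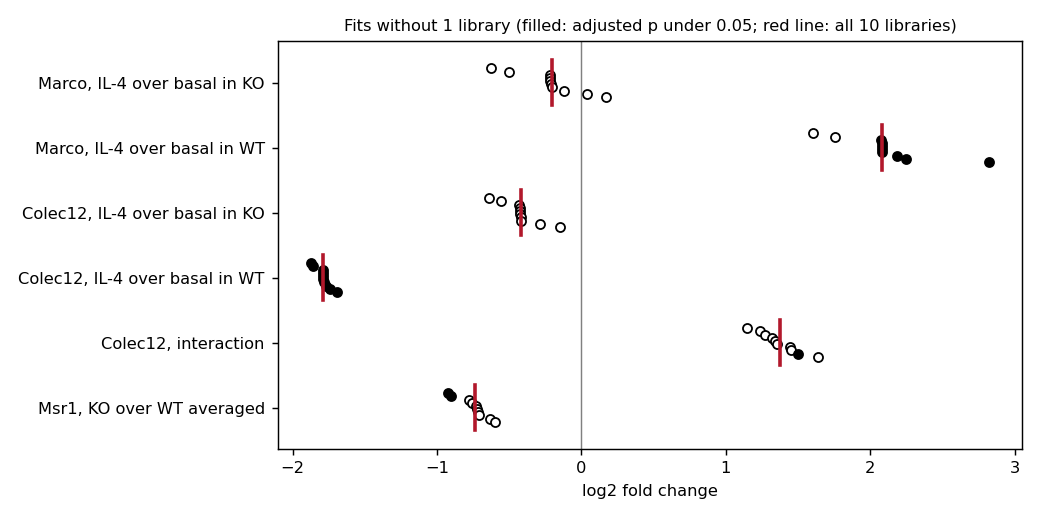
Log2 fold changes of selected member results when each of the 10 libraries was left out in turn, with filled points where the adjusted p was under 0.05 and a red line for all 10 libraries. Colec12 under IL-4 in WT mice stays called throughout, Marco in 8 of 10 fits, the Colec12 interaction in 1 and the averaged Msr1 difference in 2.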

How the data were processed

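The deposited values were whole-number read counts per gene in 10 libraries, used as deposited. Per the submitters' processing notes the tools were STAR and HTSeq and the build was mm10, while versions and the strand setting are not given in the sources used here. Counts of 22165 Ensembl identifiers were matched to GENCODE M21 on mm10, and 420 had no symbol. Counts depend on depth, so levels are given as CPM with TMM-scaled library sizes, and per kilobase of the union of annotated exons where genes are compared.

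Genes were filtered with filterByExpr (minimum count 10, minimum total 15), which left 11614. A quasi-likelihood model in edgeR 4.0.16 (R 4.3.3) held the 4 group means, with 6 residual degrees of freedom and a common biological coefficient of variation of 28.4%. In all, 7 contrasts were tested two-sided and adjusted over all genes tested, with a threshold of 0.05. SEs were computed from the fold change and its F statistic. Ratios to Msr1 were compared by exact permutation. The alternatives were DESeq2 1.42.0, RLE factors, library totals, no filter, a replicate block, the compared groups alone, and each library left out. Where this left 1 library in a group, it was assumed to vary like the others. Libraries of a group differed by far more than sampling noise (chi-square per degree of freedom 26.9 to 76.9).

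Members and lists were chosen with earlier results of these data known. The text names the 8 members, up to 4 passing genes of each list per contrast by smallest p (fewer where the result is given as a count), and the 3 genes most alike (at least 10 CPM). Some genes that this rule also named are not reported here.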

Additional observations from a re-analysis of the deposited data

Results flagged for a closer look

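Colec12 differed between genotypes in its IL-4 response. The interaction was 1.37 on the log2 scale (adjusted p = 0.0457, edgeR's quasi-likelihood test), and KO libraries lay above WT libraries after IL-4 but below them under basal conditions. The call was kept in 1 of 10 fits without 1 library and was lost with library totals (1.20, adjusted p = 0.0918) and with a replicate block (1.38, adjusted p = 0.0682). Cd36 showed the opposite arrangement, with every KO library below the WT libraries after IL-4 and above them under basal conditions. Its interaction was -0.79 and did not pass (adjusted p = 0.288). Groups held 2 or 3 libraries, so no formal outlier test was run within a group.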

How the results depend on the processing

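Of the 8 members, the number called moved with the setting. KO against WT after IL-4 gave 0 calls as reported and 2 without the filter or with DESeq2 (Marco and Colec12), and the basal comparison gave 0 and, without the filter, 1. Averaged over treatments the 1 call (Msr1) became 0 with library totals and 0 with the replicate block. IL-4 in KO mice gave 0 and, with DESeq2, 1 (Scarb1), and IL-4 in WT mice gave 2 and, with DESeq2, 3 (Scarb2 added). The average over genotypes and the interaction each gave 1, and 2 without the filter or with DESeq2. With 1 library left out, the counts ranged from 0 to 1 for the averaged genotype difference, 1 to 2 for IL-4 in WT and for the IL-4 average, and 0 to 2 for the interaction, and stayed at 0 in the other 3 comparisons. The replicate block also replaced the Colec12 interaction (1.38, adjusted p = 0.0682) by that of Marco (-2.51, adjusted p = 0.0349), and the cause was not tested. Same-numbered libraries did not deviate together (13 pairs, r from -0.11 to 0.062, 0 over 0.1). In groups of 2 the deviations are mirror images, so this cannot show whether the numbers pair the samples. The labels do not state it.

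Signs turned for values near 0. Cd68 under basal conditions was 0.13 with library totals and 0.014 with the compared groups alone, and Scarb1 in WT mice was -0.023 with the block. With 1 library left out, values ranged from -0.10 to 0.21 (Cxcl16, genotype after IL-4), -0.066 to 0.040 (Cd68, genotype basal), -0.63 to 0.17 (Marco, IL-4 in KO), -0.62 to 0.063 (Msr1, IL-4 in KO), -0.12 to 0.019 (Cd36, IL-4 in KO), -0.48 to 0.0081 (Cxcl16, IL-4 in KO), -0.025 to 0.14 (Scarb1, IL-4 in WT) and -0.054 to 0.63 (Msr1, interaction).

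Counts over all genes moved by more than 1.5 times in some settings. For KO against WT after IL-4, basal and averaged, for IL-4 in KO and in WT, and for the interaction, they were 96, 481, 464, 883, 704 and 326 as reported. Without the filter they were 505, 1034, 934, 1423, 1209 and 819, and with DESeq2 396, 895, 856, 1371, 1185 and 623. The block gave 554 for IL-4 in KO and 836, against 1493, for the IL-4 average. With 1 library left out, the counts ranged from 21 to 129, 208 to 550, 197 to 441, 327 to 931, 302 to 764 and 182 to 397 in the same order, and 841 to 1560 for the IL-4 average. Library totals moved the median of all genes to 0.13 in the basal comparison, -0.10 for IL-4 in KO and -0.17 for the interaction. They moved the share of higher genes among those called to 79.3% from 63.0% in the basal comparison, 71.2% from 58.0% in the averaged one, 42.0% from 53.8% for IL-4 in KO, 65.3% from 53.8% for IL-4 in WT and 25.1% from 36.5% for the interaction. Without the filter these shares were 43.9%, 44.8%, 60.5%, 46.6% and 59.5%. With 2 or 3 libraries a group, differences of the size seen for Cd36, Scarb1, Scarb2, Cd68 and Cxcl16 did not pass at this depth and spread, which does not show them to be absent.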
